A study of Arabidopsis thaliana with 12 samples.

Results

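The 44 genes described here encode the nuclear-made proteins of the 2 photosystems and their light-harvesting antennae in *Arabidopsis thaliana*. They were taken by gene identifier, as LHCA, LHCB, PSA and PSB genes of the nuclear genome, with earlier results of these data known. All 44 were found among the 27655 genes of each count table. By role they fall into 6 genes of the photosystem I antenna (LHCA), 9 of the trimeric antenna LHCII (LHCB1, LHCB2 and LHCB3), 6 of the minor antenna (LHCB4 to LHCB7), 12 subunits of photosystem I (PSA), 5 subunits of the oxygen-evolving complex and 6 other small subunits of photosystem II (PSB).

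Photosystem II takes electrons from water and photosystem I lifts them to ferredoxin. The reaction centres themselves are built from chloroplast-encoded proteins, while the antenna proteins that bind chlorophyll and many small subunits are made in the cytosol and imported. In leaves the mRNAs of these genes are among the most abundant, and many of them follow light, sugar and the circadian clock.

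The plants were wild-type Col-0 seedlings, 14 days old, grown on sucrose-containing medium with 16 h of light and 8 h of darkness. Low boron (the group Bminus) had 0.3 µM boric acid, high boron (Bplus) had 500 µM, and Ctrl had 30 µM. Whole shoots of about 300 plants were pooled for each replicate, and each supply was measured by RNA-seq and by ribosome profiling, which sequences the stretches of mRNA covered by ribosomes (footprints). There were 2 libraries per supply and assay, 12 in all, numbered 2 and 3 in the tables, and paired values below are given in that order. Values are CPM (edgeR's library-scaled counts after TMM normalisation) and log2 fold changes ± SE. A called change is one with a Benjamini-Hochberg adjusted p under 0.05 in edgeR's quasi-likelihood test over all genes tested. Low boron and high boron were both compared with the same Ctrl libraries, so the 2 comparisons are not independent of each other.

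Total counts were 7563365 to 9256564 per RNA library and 6903881 to 24206655 per footprint library. Of the RNA counts, the 44 genes took 6.2 and 5.9% at low boron, 7.94 and 8.57% in Ctrl, and 8.93 and 9.14% at high boron. Of the footprint counts, they took 4.58 and 4.27% at low boron, 7.08 and 7.13% in Ctrl, and 6.33 and 8.3% at high boron. The low-boron libraries were thus below both Ctrl libraries in each assay, and the high-boron footprint libraries lay on either side of them. Library 3 of high-boron footprints was above library 2 for 43 of the 44 genes, with a median log2 difference of 0.44. At low boron it was above for 6 genes, with a median of -0.23, and in Ctrl for 24 genes, with a median of 0.08. Chloroplast-encoded genes took 7.41 and 3.97% of footprint counts at low boron, 4.91 and 4.04% in Ctrl, and 8.14 and 2.79% at high boron, and their part in the footprint changes was not tested. The shoot label was checked with marker lists: root hair markers summed to at most 0.566 CPM in any RNA library, and the leaf genes CA1 and RCA were abundant in all. In footprints the highest value of a single root hair marker was 1.25 CPM, that of COBL9 in low-boron library 3.

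At low boron, mRNA of 38 of the 44 genes fell and that of 0 rose. Of all 18403 genes tested, 13.8% were called lower and 19.5% higher in this comparison. The median log2 fold change of the 44 genes was -0.47, beside 0.02 over all genes tested. By role, all 6 LHCA genes fell, as did all 12 photosystem I subunits, all 5 oxygen-evolving subunits and all 6 other photosystem II subunits, but 5 of 9 LHCII genes and 4 of 6 minor antenna genes. The 6 genes not called were LHCB1.1 (AT1G29920, 0.23 ± 0.10), LHCB1.5 (AT2G34420, -0.31 ± 0.12), LHCB2.1 (AT2G05100, 0.21 ± 0.09), LHCB2.2 (AT2G05070, -0.01 ± 0.09), LHCB4.3 (AT2G40100, -0.08 ± 0.20) and LHCB7 (AT1G76570, 0.03 ± 0.18). Levels of 39 of the 44 genes were below both Ctrl libraries in both low-boron libraries and those of 2 were above, beside 30.2 and 36.4% of all genes tested. Leaving out 1 library at a time, 30 to 39 of the genes were called lower. LHCB1.1 was called higher without Ctrl library 3 (0.40, adjusted p = 0.00131), and so was LHCB2.1 (0.28, adjusted p = 0.0412). LHCB1.5 was called lower in 5 of 15 alternatives, among them without Ctrl library 2 (-0.52, adjusted p = 4.11e-05).

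At high boron, mRNA of 13 of the 44 genes rose and that of 4 fell, so members of 1 family went different ways. Over all genes tested, 4.5% were called higher and 4.55% lower. The median of the 44 genes was 0.16, beside -0.01 over all genes tested. The genes that rose were LHCA1, LHCA3, LHCA4, all 3 LHCB2 genes, LHCB3, LHCB4.2, LHCB5, LHCB6, PSAD-2, PSAN and PSAO. Of these 13, 10 encode antenna proteins, including the 3 near-identical LHCB2 copies. Among the 44 genes, 6 LHCA, 9 LHCII and 6 minor antenna genes encode such proteins. Those that fell were LHCA2, LHCB1.3, PSAL and PSBQ-1. Of the 11 photosystem II subunits outside the antenna, 0 rose and 1 fell. Levels of 26 genes were above both Ctrl libraries in both high-boron libraries and those of 5 were below, beside 24.2 and 25.3% of all genes tested. Leaving out 1 library at a time, 11 to 17 of the genes were called higher and 1 to 5 lower. The count lower was 1 without low-boron library 2, low-boron library 3 or high-boron library 2.

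**Figure D1:**
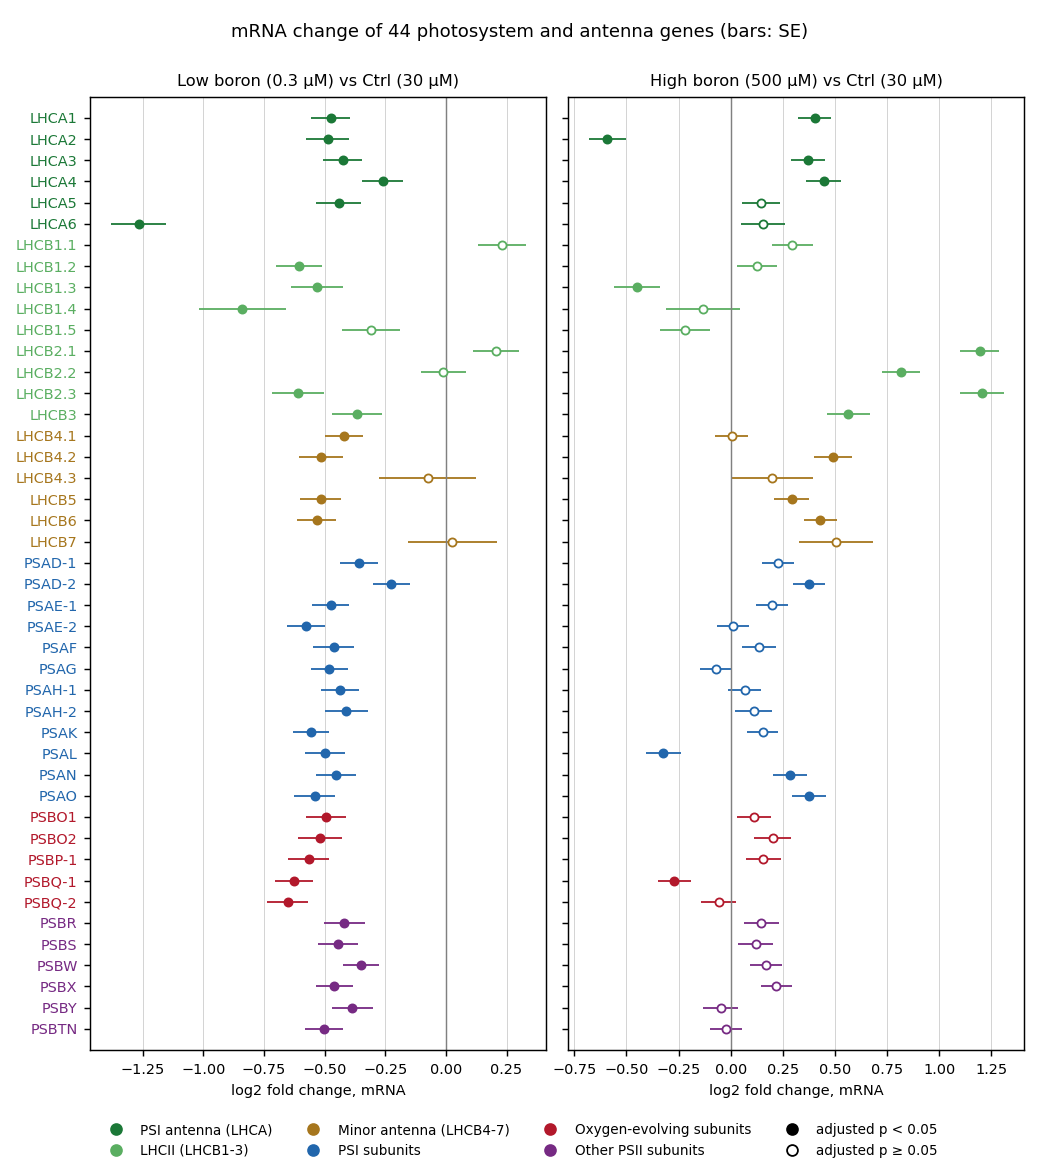
mRNA log2 fold change of each of the 44 genes at low boron (left) and high boron (right) against Ctrl, with bars for 1 SE, colours for the role and filled symbols for adjusted p under 0.05 (edgeR, n = 2 libraries per group). At low boron nearly all genes lie to the left of 0, LHCA6 farthest at -1.27, whereas at high boron LHCB2.1 and LHCB2.3 stand at 1.19 and 1.21 and LHCA2 at -0.59.

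In ribosome footprints at low boron, 22 of the 44 genes fell and 0 rose, and all 22 were among the 38 genes with lower mRNA. Of the 17697 genes tested, 6.92% were called lower and 8.05% higher. The median of the 44 genes was -0.66, beside 0 over all genes tested. The photosystem I subunits held 9 of the 22 calls among 12 genes, LHCA genes 3 of 6, LHCII genes 1 of 9, the minor antenna 2 of 6, the oxygen-evolving complex 3 of 5 and the other photosystem II subunits 4 of 6. Footprints of 40 genes were below both Ctrl libraries in both low-boron libraries, and those of 1, LHCB1.1, were above, beside 27.2 and 29.1% of all genes tested. With any 1 library left out, the median of the 44 genes ran from -0.62 to -0.79. Over all genes tested, fewer were called lower without a low-boron or Ctrl library. Among the 44 genes the number of calls likewise depended on the libraries in the fit. It was 1, LHCA6, without low-boron library 3, 3 without Ctrl library 2, 12 without low-boron library 2 and 12 without Ctrl library 3, and 30 or 31 without one of the high-boron libraries.

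In footprints at high boron, 1 of the 44 genes rose (LHCB2.1) and 2 fell (LHCB1.3 and PSAG), beside 0.463% of all genes tested called higher and 1.51% called lower. The median was 0.03 for the 44 genes and 0.01 over all genes tested. It was 0.23 without high-boron library 2 and -0.21 without high-boron library 3, the pair of footprint libraries that differed most for these genes. None of the 3 calls remained without Ctrl library 2 or without Ctrl library 3. Footprints of 9 genes lay above both Ctrl libraries in both high-boron libraries and those of 9 lay below, beside 18.3 and 18% of all genes tested.

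**Figure D2:**
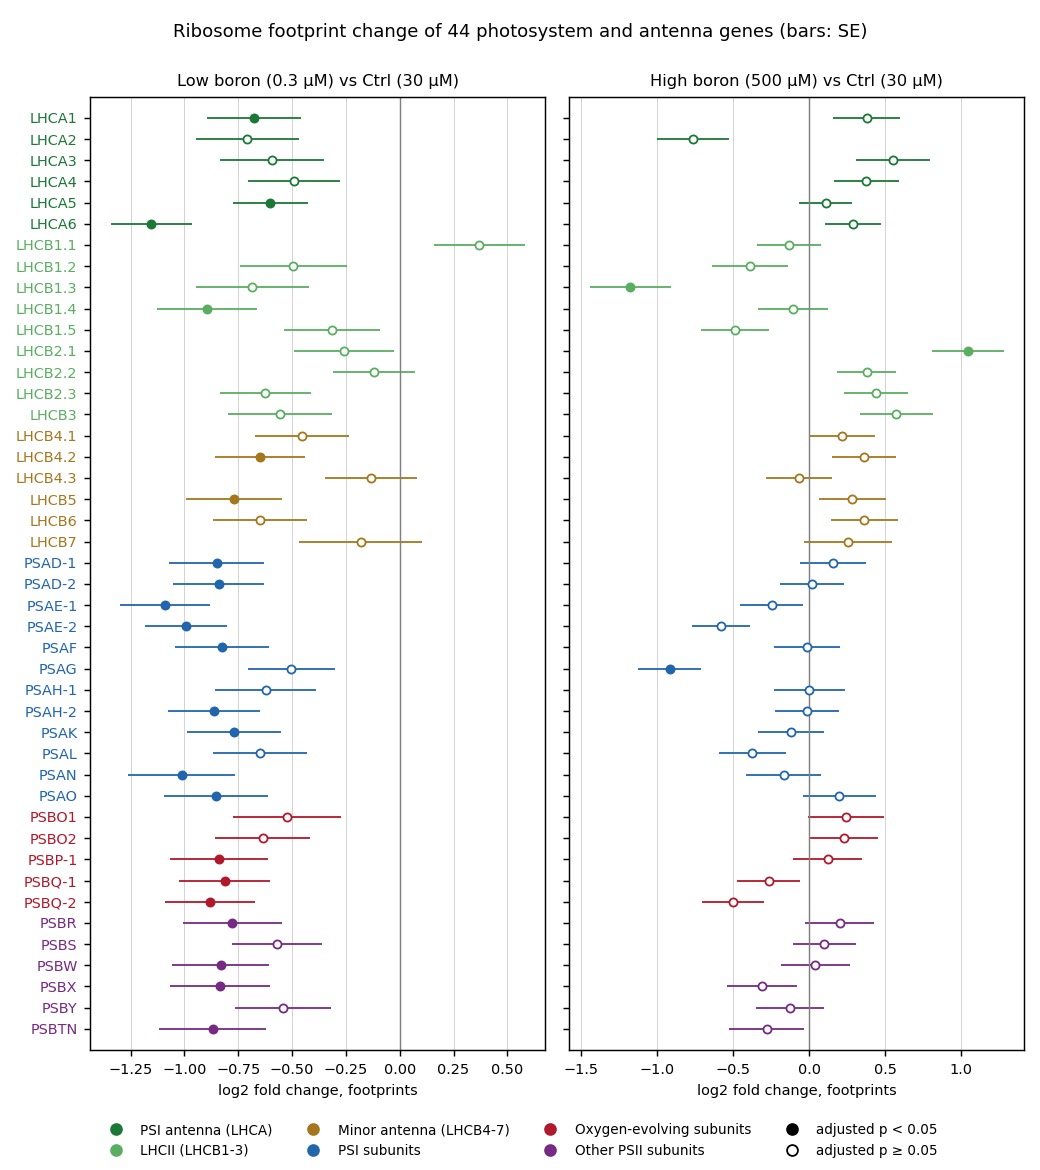
Ribosome footprint log2 fold change of the 44 genes at low boron (left) and high boron (right) against Ctrl, drawn as for mRNA with bars for 1 SE and filled symbols for adjusted p under 0.05 (edgeR, n = 2 libraries per group). At low boron the photosystem I and II subunits lie between -0.50 and -1.09, and at high boron LHCB2.1 at 1.04, PSAG at -0.92 and LHCB1.3 at -1.17 are the filled points.

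The photosystem I antenna is a belt of LHCA1 to LHCA4 beside the core, and LHCA5 and LHCA6 are minor members that link photosystem I to the chloroplast NDH complex of cyclic electron flow. LHCA6 (AT1G19150) mRNA had 53.1 and 45.8 CPM at low boron, 134 and 104 CPM in Ctrl, and 131 and 134 CPM at high boron. Its footprints had 33.5 and 31.7 CPM at low boron, 60.7 and 85.1 CPM in Ctrl, and 87.7 and 89.6 CPM at high boron. Both low-boron libraries were below all other libraries in each assay. The mRNA fell by 1.27 ± 0.11 on the log2 scale at low boron (edgeR adjusted p = 1.15e-06), the largest fall among the 44 genes, and the footprints fell by 1.15 ± 0.19 (adjusted p = 0.000765). Both calls held in every alternative run. At high boron LHCA6 was not called in mRNA (0.16 ± 0.11, adjusted p = 0.442), and without Ctrl library 2 it was (0.35, adjusted p = 0.0216).

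LHCA2 (AT3G61470) fell in mRNA at high boron, where its 3 partners in the belt rose. Its mRNA had 1543 and 1461 CPM at low boron, 2066 and 2147 CPM in Ctrl, and 1291 and 1504 CPM at high boron. The footprints of LHCA2 had 1511 and 1483 CPM at low boron, 2136 and 2761 CPM in Ctrl, and 1104 and 1783 CPM at high boron. Ctrl was highest in both assays and overlapped neither of the other supplies. LHCA2 mRNA fell at low boron by 0.49 ± 0.09 (edgeR adjusted p = 0.000585) and at high boron by 0.59 ± 0.09 (adjusted p = 0.000608). Its footprint changes of -0.71 ± 0.24 (adjusted p = 0.0581) and -0.76 ± 0.24 (adjusted p = 0.157) were not called. The low-boron change passed without high-boron library 2 (-0.71, adjusted p = 0.0128) or 3 (-0.72, adjusted p = 0.017), and the high-boron change without high-boron library 3 (-1.18, adjusted p = 0.0261).

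LHCA4 (AT3G47470), which carries far-red absorbing chlorophylls of this antenna, rose at high boron. Its mRNA had 2692 and 2484 CPM at low boron, 2953 and 3250 CPM in Ctrl, and 4228 and 4225 CPM at high boron, with no overlap between supplies. It rose at high boron by 0.45 ± 0.08 (edgeR adjusted p = 0.00345) and fell at low boron by 0.26 ± 0.08 (adjusted p = 0.027). The fall was not called without low-boron library 2 (-0.32, adjusted p = 0.103), low-boron library 3 (-0.20, adjusted p = 0.31) or Ctrl library 3 (-0.19, adjusted p = 0.125). LHCA4 footprints, at 1145 and 923 CPM at low boron, 1469 and 1439 CPM in Ctrl, and 1604 and 2169 CPM at high boron, were not called (-0.49 ± 0.21 and 0.38 ± 0.21). LHCA1 and LHCA3 mRNA rose at high boron by 0.40 ± 0.08 and 0.37 ± 0.08.

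The share of LHCA2 in the LHCA1 to LHCA4 counts was picked for description after its values had been seen. Its share of RNA counts was 17.4 and 17.6% at low boron, 18.4 and 18.7% in Ctrl, and 9.59 and 10.8% at high boron. Its share of footprint counts was 26.8 and 27.3% at low boron, 27.7 and 29.6% in Ctrl, and 14 and 15.1% at high boron. The high-boron libraries lay below all others in each assay. Such shares are taken within a library and need no scaling between libraries, and none was tested, because they had been picked from their values.

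LHCII, the most abundant antenna, is a trimer assembled from LHCB1, LHCB2 and LHCB3. The 5 LHCB1 genes and the 3 LHCB2 genes are near-identical within their families, and how reads shared by such copies were assigned is not known. The value of a single copy is therefore uncertain, and the family sums are given first. If shared reads were dropped, the sums and the shares taken from them would lack those reads too. Whether this was so, or differed between the assays, was not tested. LHCB1.2, LHCB1.1 and LHCB1.3 are neighbours on 1 chromosome, LHCB1.5 and LHCB1.4 are neighbours on another, and so are LHCB2.2 and LHCB2.1, going by RefSeq's gene annotation (TAIR10.1).

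Summed LHCB1 mRNA had 18004 and 17448 CPM at low boron, 20824 and 27688 CPM in Ctrl, and 19954 and 21127 CPM at high boron. Summed LHCB2 mRNA had 1471 and 1219 CPM at low boron, 1264 and 1377 CPM in Ctrl, and 2637 and 2748 CPM at high boron. LHCB1 was thus below Ctrl at low boron, with the Ctrl libraries far apart, and LHCB2 was well above Ctrl at high boron while low boron and Ctrl overlapped. LHCB1 mRNA fell at low boron by 0.45 ± 0.11 (edgeR adjusted p = 0.00629), and at high boron it was not called (-0.24 ± 0.11, adjusted p = 0.232). LHCB2 mRNA rose at high boron by 1.03 ± 0.09 (adjusted p = 1.16e-05) and was not called at low boron (0.03 ± 0.09, adjusted p = 0.864).

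Summed LHCB1 footprints had 3977 and 3152 CPM at low boron, 5083 and 5015 CPM in Ctrl, and 2246 and 3815 CPM at high boron. Summed LHCB2 footprints had 1537 and 1303 CPM at low boron, 1618 and 1727 CPM in Ctrl, and 2272 and 3227 CPM at high boron. Both treated supplies were below Ctrl for LHCB1, and for LHCB2 low boron was below and high boron above. None of these differences was called: at low boron they were -0.50 ± 0.25 for LHCB1 (edgeR adjusted p = 0.211) and -0.24 ± 0.22 for LHCB2 (adjusted p = 0.543). The high-boron differences were -0.74 ± 0.25 for LHCB1 (adjusted p = 0.211) and 0.72 ± 0.22 for LHCB2 (adjusted p = 0.142).

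The share of LHCB2 in the summed counts of the 2 families was likewise picked after its values had been seen. LHCB2 made up 7.55 and 6.53% of the summed LHCB1 and LHCB2 RNA counts at low boron, 5.72 and 4.74% in Ctrl, and 11.7 and 11.5% at high boron. In footprints it made up 27.9 and 29.2% at low boron, 24.1 and 25.6% in Ctrl, and 50.3 and 45.8% at high boron. The high-boron libraries stood apart from all others in each assay. LHCB1.3 made up 52.2 and 52.6% of the LHCB1 RNA counts at low boron, 56.2 and 54.7% in Ctrl, and 47.8 and 48% at high boron, all 4 treated libraries being below Ctrl. Of the LHCB1 footprint counts it made up 45.2 and 45.9% at low boron, 52.6 and 50.6% in Ctrl, and 35.1 and 39.9% at high boron.

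**Figure D3:**
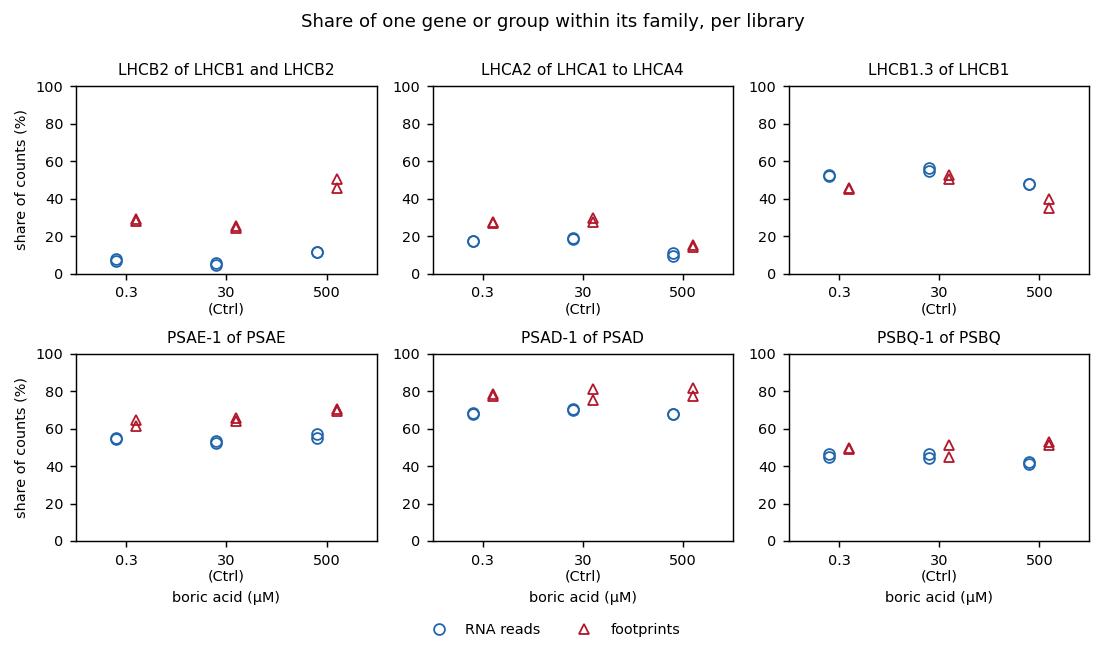
Share (in percent of the family's counts in 1 library) of LHCB2 among LHCB1 and LHCB2, of LHCA2 among LHCA1 to LHCA4, and of single genes in their families, by boric acid supply in µM, with circles for RNA reads and triangles for footprints, 1 symbol per library. LHCB2 reaches 50.3 and 45.8% of footprints at high boron and LHCA2 drops to 14 and 15.1%, while the PSAD-1 share stays between 67.7 and 81.6% in all libraries.

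Among single LHCB2 copies, LHCB2.1 mRNA had 674 and 566 CPM at low boron, 512 and 563 CPM in Ctrl, and 1185 and 1274 CPM at high boron, which was far above the others. It rose at high boron by 1.19 ± 0.09 in mRNA (edgeR adjusted p = 3.46e-06). Its footprints had 646 and 589 CPM at low boron, 728 and 750 CPM in Ctrl, and 1119 and 1930 CPM at high boron, and they rose at high boron by 1.04 ± 0.23 (adjusted p = 0.0303). Without high-boron library 3 (0.57, adjusted p = 0.28), Ctrl library 2 (1.01, adjusted p = 0.244) or Ctrl library 3 (1.05, adjusted p = 0.136), the footprint rise was not called. In mRNA LHCB2.1 was not called at low boron, except without Ctrl library 3 (0.28, adjusted p = 0.0412).

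LHCB2.3 (AT3G27690), which lies apart from the other LHCB2 copies, changed in both directions. Its mRNA had 114 and 88.2 CPM at low boron, 146 and 163 CPM in Ctrl, and 357 and 355 CPM at high boron, so the supplies were ordered with no overlap. It fell at low boron by 0.61 ± 0.11 (edgeR adjusted p = 0.000486) and rose at high boron by 1.21 ± 0.10 (adjusted p = 7.37e-06). LHCB2.3 footprints had 146 and 122 CPM at low boron, 186 and 228 CPM in Ctrl, and 223 and 340 CPM at high boron. They were not called at low boron (-0.63 ± 0.21, adjusted p = 0.0582), where they passed without high-boron library 2 (-0.63, adjusted p = 0.0244) or 3 (-0.64, adjusted p = 0.026), nor at high boron (0.44 ± 0.21, adjusted p = 0.448). LHCB2.2 mRNA rose at high boron by 0.82 ± 0.09 (adjusted p = 6.31e-05).

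Among LHCB1 copies, LHCB1.3 (AT1G29930) fell in mRNA at both supplies. Its mRNA had 9391 and 9183 CPM at low boron, 11702 and 15158 CPM in Ctrl, and 9531 and 10145 CPM at high boron, and its footprints had 1798 and 1446 CPM at low boron, 2673 and 2540 CPM in Ctrl, and 788 and 1524 CPM at high boron. Ctrl was highest in both assays, without overlap. The mRNA fell at low boron by 0.53 ± 0.11 (edgeR adjusted p = 0.00154) and at high boron by 0.45 ± 0.11 (adjusted p = 0.0173), and the footprints fell at high boron by 1.17 ± 0.27 (adjusted p = 0.0318). At low boron its footprints were not called (-0.68 ± 0.26, adjusted p = 0.0964), but were without high-boron library 2 (-0.69, adjusted p = 0.0147) or 3 (-0.69, adjusted p = 0.0176).

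The low-boron mRNA change of LHCB1.3 was -0.33 without Ctrl library 3 (edgeR adjusted p = 0.00481). Both of its high-boron calls depended on the libraries in the fit. The mRNA change was not called without low-boron library 2 or 3. It stayed at -0.45 in both fits, as those libraries are not in the groups compared and enter only the shared spread. The mRNA change was also not called without high-boron library 2 (-0.39) or Ctrl library 3 (-0.25). In footprints the same held without high-boron library 2 (-0.77, adjusted p = 0.153), Ctrl library 2 (-1.15, adjusted p = 0.195) or Ctrl library 3 (-1.23, adjusted p = 0.0907).

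LHCB1.4 (AT2G34430) fell in mRNA at low boron by an amount that depended on the Ctrl library. Its mRNA had 1113 and 1040 CPM at low boron, 1373 and 2480 CPM in Ctrl, and 1663 and 1848 CPM at high boron. The Ctrl libraries enclosed the high-boron values and were both above low boron. The low-boron change of -0.84 ± 0.18 (edgeR adjusted p = 0.00218) was -1.2 without Ctrl library 2 (adjusted p = 5.13e-12) and -0.35 without Ctrl library 3 (adjusted p = 0.0046), and DESeq2 did not call it (adjusted p = 0.0572). At high boron the difference of -0.13 ± 0.18 (adjusted p = 0.729) turned with the Ctrl library left out, being -0.50 without Ctrl library 2 (adjusted p = 0.000363) and 0.35 without Ctrl library 3 (adjusted p = 0.0166). LHCB1.4 footprints, at 190 and 132 CPM at low boron against 288 and 313 CPM in Ctrl, fell by 0.90 ± 0.23 (adjusted p = 0.0163). That call was lost without low-boron library 3 (-0.66, adjusted p = 0.221), Ctrl library 2 (-0.95, adjusted p = 0.0628) or Ctrl library 3 (-0.83, adjusted p = 0.0721).

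LHCB3 (AT5G54270), the third LHCII protein and a single gene, had mRNA of 1963 and 1750 CPM at low boron, 2129 and 2658 CPM in Ctrl, and 3499 and 3576 CPM at high boron, without overlap. It rose at high boron by 0.56 ± 0.10 (edgeR adjusted p = 0.00268) and fell at low boron by 0.37 ± 0.10 (adjusted p = 0.0123). The fall was not called without low-boron library 3 (-0.29, adjusted p = 0.202) or Ctrl library 3 (-0.20, adjusted p = 0.118).

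The minor antenna proteins sit as monomers between the photosystem II core and LHCII: LHCB4 is CP29, LHCB5 is CP26 and LHCB6 is CP24. LHCB6 (AT1G15820) mRNA had 1617 and 1526 CPM at low boron, 2235 and 2312 CPM in Ctrl, and 2994 and 3133 CPM at high boron. LHCB4.2 (AT3G08940) mRNA had 877 and 790 CPM at low boron, 1106 and 1277 CPM in Ctrl, and 1632 and 1717 CPM at high boron. The levels of both were ordered by supply without overlap. LHCB6 fell at low boron by 0.53 ± 0.08 (edgeR adjusted p = 0.000119) and rose at high boron by 0.43 ± 0.08 (adjusted p = 0.00295), and LHCB4.2 fell by 0.52 ± 0.09 (adjusted p = 0.000462) and rose by 0.49 ± 0.09 (adjusted p = 0.00282).

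LHCB5 (AT4G10340) mRNA had 3181 and 2955 CPM at low boron, 4231 and 4551 CPM in Ctrl, and 5256 and 5495 CPM at high boron, in the same order. Its fall at low boron of 0.52 ± 0.08 (edgeR adjusted p = 0.000247) held in every alternative, whereas its rise at high boron of 0.29 ± 0.08 (adjusted p = 0.0427) did not in 8 of 16. Among those 8, the rise was lost without low-boron library 2 (0.29, adjusted p = 0.142), low-boron library 3 (0.29, adjusted p = 0.143), high-boron library 3 (0.26, adjusted p = 0.107) or Ctrl library 2 (0.24, adjusted p = 0.108).

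In footprints, LHCB5 had 2387 and 1790 CPM at low boron, 3851 and 3274 CPM in Ctrl, and 4146 and 4533 CPM at high boron. It fell at low boron by 0.77 ± 0.22 (edgeR adjusted p = 0.0285), and LHCB4.2, at 559 and 423 CPM at low boron against 694 and 847 CPM in Ctrl, fell by 0.65 ± 0.21 (adjusted p = 0.0477). The LHCB5 call was lost without low-boron library 3 (-0.57, adjusted p = 0.298) or Ctrl library 2 (-0.65, adjusted p = 0.183), and the LHCB4.2 call was lost without either low-boron library or either Ctrl library (adjusted p = 0.0575 to 0.417). LHCB6 footprints, at 1166 and 995 CPM at low boron against 1427 and 1963 CPM in Ctrl, were not called (-0.65 ± 0.22, adjusted p = 0.0584), and passed without high-boron library 2 (-0.65, adjusted p = 0.0284) or 3 (-0.66, adjusted p = 0.0348).

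LHCB4.1 (AT5G01530) made up 76.1 and 77.9% of the summed LHCB4 RNA counts at low boron, 77.4 and 74.3% in Ctrl, and 69.3 and 69.2% at high boron, where the LHCB4.1 mRNA change was 0.01 ± 0.08 (edgeR adjusted p = 0.98). LHCB7, an LHCB gene of low count, had mRNA of 9.5 and 11.1 CPM at low boron, 11.1 and 9.11 CPM in Ctrl, and 13 and 15.6 CPM at high boron. High boron was above the other libraries, but the difference of 0.51 ± 0.18 missed the threshold (edgeR adjusted p = 0.0947), and passed it without Ctrl library 2 (0.65, adjusted p = 0.0492). LHCB4.3, the other minor antenna gene of low count, had 12.2 to 20.1 CPM of mRNA in all libraries and was not called with all libraries in the fit, though its mRNA was called higher at high boron without Ctrl library 2 (0.61, adjusted p = 0.0347).

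**Figure D4:**
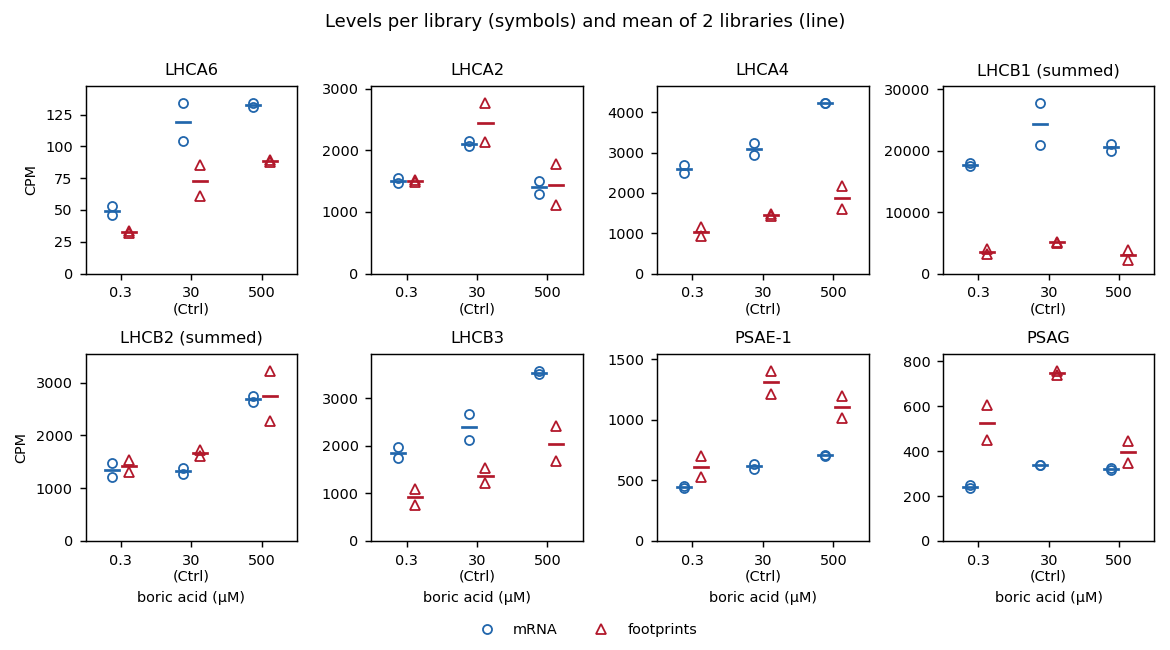
CPM of mRNA (circles) and footprints (triangles) by boric acid supply in µM, 1 symbol per library and a line at the mean of 2, for LHCA6, LHCA2, LHCA4, summed LHCB1, summed LHCB2, LHCB3, PSAE-1 and PSAG. LHCA6 is lowest at 0.3 µM in both assays (45.8 to 53.1 CPM of mRNA), LHCB2 is highest at 500 µM (2637 and 2748 CPM of mRNA), and PSAG footprints are highest in Ctrl (758 and 737 CPM).

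The nuclear-encoded subunits of photosystem I serve as docking sites. PSAD and PSAE hold ferredoxin on the stromal side, PSAF and PSAN serve plastocyanin in the lumen, PSAG and PSAK flank the core within the membrane, and PSAH, PSAL and PSAO lie where LHCII binds in state transitions. All 12 genes fell in mRNA at low boron, by 0.22 to 0.58 on the log2 scale.

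PSAE-2 (AT2G20260) mRNA had 371 and 366 CPM at low boron, 554 and 545 CPM in Ctrl, and 530 and 578 CPM at high boron. PSAE-1 (AT4G28750) mRNA had 453 and 434 CPM at low boron, 636 and 596 CPM in Ctrl, and 701 and 712 CPM at high boron. Low boron was below Ctrl for each, and they fell by 0.58 ± 0.08 (edgeR adjusted p = 4.71e-05) and 0.47 ± 0.08 (adjusted p = 0.000243). PSAE-1 footprints had 701 and 528 CPM at low boron, 1406 and 1213 CPM in Ctrl, and 1015 and 1196 CPM at high boron. PSAE-2 footprints had 387 and 332 CPM at low boron, 742 and 687 CPM in Ctrl, and 429 and 528 CPM at high boron. At low boron PSAE-1 footprints fell by 1.09 ± 0.21 (adjusted p = 0.00234) and PSAE-2 footprints by 0.99 ± 0.19 (adjusted p = 0.00243), calls that were lost without low-boron library 3 (-0.90, adjusted p = 0.0645, and -0.88, adjusted p = 0.0621). At high boron neither was called in either assay by edgeR, while DESeq2 called PSAE-2 footprints lower (-0.59, adjusted p = 0.0386).

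PSAK (AT1G30380) mRNA had 657 and 629 CPM at low boron, 949 and 943 CPM in Ctrl, and 1044 and 1059 CPM at high boron, and fell at low boron by 0.56 ± 0.08 (edgeR adjusted p = 4.99e-05). Its footprints had 1354 and 1147 CPM at low boron against 2213 and 2051 CPM in Ctrl, and fell by 0.77 ± 0.22 (adjusted p = 0.0261), a call lost without either low-boron library or either Ctrl library (adjusted p = 0.0615 to 0.233). PSAO (AT1G08380) mRNA had 1392 and 1284 CPM at low boron, 1994 and 1902 CPM in Ctrl, and 2433 and 2617 CPM at high boron, without overlap. It fell at low boron by 0.54 ± 0.08 (adjusted p = 0.000143) and rose at high boron by 0.37 ± 0.08 (adjusted p = 0.00958). PSAO footprints had 1003 and 925 CPM at low boron, 1606 and 1884 CPM in Ctrl, and 1477 and 2527 CPM at high boron. They were called lower at low boron, a call lost without either low-boron library (-0.92 and -0.79) or either Ctrl library (-0.96 and -0.73).

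PSAD-2 (AT1G03130) mRNA had 565 and 538 CPM at low boron, 654 and 635 CPM in Ctrl, and 828 and 845 CPM at high boron. PSAD-1 (AT4G02770) mRNA had 1190 and 1162 CPM at low boron, 1540 and 1476 CPM in Ctrl, and 1734 and 1791 CPM at high boron. The levels of both were ordered by supply without overlap. PSAD-2 rose at high boron by 0.38 ± 0.08 (edgeR adjusted p = 0.0053), and its fall at low boron of 0.22 ± 0.08 (adjusted p = 0.0332) was lost without low-boron library 2 (-0.26, adjusted p = 0.127), low-boron library 3 (-0.19, adjusted p = 0.279) or Ctrl library 2 (-0.20, adjusted p = 0.101). PSAD-1 fell by 0.36 ± 0.08 at low boron (adjusted p = 0.00221), lost without low-boron library 3 (-0.34, adjusted p = 0.0625). Its change at high boron missed the threshold (0.23 ± 0.08, adjusted p = 0.0882).

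PSAD footprints fell at low boron as well. PSAD-1 had 2019 and 1794 CPM at low boron, 3479 and 3400 CPM in Ctrl, and 3256 and 4420 CPM at high boron. PSAD-2 had 583 and 488 CPM at low boron, 1136 and 784 CPM in Ctrl, and 947 and 998 CPM at high boron. They fell at low boron by 0.85 ± 0.22 (edgeR adjusted p = 0.0158) and 0.84 ± 0.21 (adjusted p = 0.014). The PSAD-1 call was lost without either low-boron library or either Ctrl library (adjusted p = 0.0519 to 0.154), and the PSAD-2 call without low-boron library 3 (-0.72, adjusted p = 0.173) or Ctrl library 2 (-0.55, adjusted p = 0.18).

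PSAH-1 (AT3G16140) and PSAH-2 (AT1G52230) were both below Ctrl at low boron. PSAH-1 mRNA had 485 and 472 CPM at low boron, against 655 and 640 CPM in Ctrl, and PSAH-2 mRNA had 460 and 404 CPM at low boron, against 604 and 545 CPM in Ctrl. They fell by 0.44 ± 0.08 (edgeR adjusted p = 0.000555) and 0.41 ± 0.09 (adjusted p = 0.00225), the PSAH-2 call being lost without low-boron library 3 (-0.32, adjusted p = 0.0803). High boron was at 648 and 709 CPM for PSAH-1 and 598 and 643 CPM for PSAH-2, which overlapped Ctrl. In footprints PSAH-2 fell at low boron by 0.86 ± 0.21 (adjusted p = 0.0122), lost without low-boron library 3 (-0.79, adjusted p = 0.132) or Ctrl library 2 (-0.74, adjusted p = 0.104). PSAH-1 footprints were not called (-0.62 ± 0.23, adjusted p = 0.0896), and passed without high-boron library 2 (-0.62, adjusted p = 0.0204) or 3 (-0.63, adjusted p = 0.0237).

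PSAG (AT1G55670) was the photosystem I subunit called in footprints at high boron. Its mRNA had 250 and 234 CPM at low boron, 339 and 336 CPM in Ctrl, and 316 and 327 CPM at high boron. The footprints of PSAG had 605 and 449 CPM at low boron, 758 and 737 CPM in Ctrl, and 447 and 345 CPM at high boron, both high-boron libraries being well below Ctrl. At low boron the mRNA fell by 0.48 ± 0.08 (edgeR adjusted p = 0.000201) and the footprints were not called (-0.50 ± 0.20, adjusted p = 0.115). At high boron the footprints fell by 0.92 ± 0.21 (adjusted p = 0.0297), while mRNA stood at -0.07 ± 0.08 (adjusted p = 0.654). Without high-boron library 3 (-0.77, adjusted p = 0.156), Ctrl library 2 (-0.91, adjusted p = 0.163) or Ctrl library 3 (-0.95, adjusted p = 0.082), the footprint fall was not called.

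Of the remaining photosystem I subunits, PSAL (AT4G12800) mRNA fell at both supplies, with 1988 and 1914 CPM at low boron, 2791 and 2718 CPM in Ctrl, and 2071 and 2333 CPM at high boron. Ctrl was highest without overlap, and the changes were -0.50 ± 0.08 (edgeR adjusted p = 0.000336) and -0.32 ± 0.08 (adjusted p = 0.0252). The high-boron call was lost without low-boron library 2 (-0.32, adjusted p = 0.0936), low-boron library 3 (-0.32, adjusted p = 0.094) or high-boron library 2 (-0.23, adjusted p = 0.168). PSAN (AT5G64040) mRNA, with 670 and 627 CPM at low boron, 919 and 858 CPM in Ctrl, and 1040 and 1126 CPM at high boron, rose at high boron by 0.29 ± 0.08 (adjusted p = 0.0411). That rise was lost in 8 of 16 alternatives, among them without low-boron library 2 or 3 (0.29 in both, adjusted p = 0.114), high-boron library 3 (0.23, adjusted p = 0.159) or Ctrl library 3 (0.24, adjusted p = 0.142). PSAN footprints had 1770 and 1164 CPM at low boron, 3529 and 2388 CPM in Ctrl, and 2555 and 2720 CPM at high boron. Their low-boron change of -1.01 was called, but not without low-boron library 3 (-0.74) or Ctrl library 2 (-0.70). PSAF (AT1G31330) was called at low boron, in both assays (-0.46 ± 0.08 and -0.83 ± 0.22), and not at high boron. The PSAF footprint call was lost without low-boron library 3 (-0.67) or Ctrl library 2 (-0.74).

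The oxygen-evolving complex caps the manganese cluster of photosystem II in the lumen with PSBO, PSBP and PSBQ. PSBQ-2 (AT4G05180) mRNA had 876 and 830 CPM at low boron, 1315 and 1366 CPM in Ctrl, and 1205 and 1373 CPM at high boron. PSBQ-1 (AT4G21280) mRNA had 715 and 717 CPM at low boron, 1131 and 1083 CPM in Ctrl, and 882 and 954 CPM at high boron. At low boron they fell by 0.65 ± 0.08 (edgeR adjusted p = 3.35e-05) and 0.63 ± 0.08 (adjusted p = 2.37e-05), without overlap. At high boron PSBQ-2 overlapped Ctrl (-0.06 ± 0.08, adjusted p = 0.76), and PSBQ-1 fell by 0.27 ± 0.08 (adjusted p = 0.0438). The last call was lost without low-boron library 2 or 3 (-0.27 in both, adjusted p = 0.129), high-boron library 2 (-0.21, adjusted p = 0.23) or Ctrl library 2 (-0.24, adjusted p = 0.106).

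PSBQ footprints fell at low boron too. PSBQ-2 had 1044 and 856 CPM at low boron, 1879 and 1621 CPM in Ctrl, and 1112 and 1364 CPM at high boron. PSBQ-1 had 1005 and 837 CPM at low boron, 1535 and 1705 CPM in Ctrl, and 1162 and 1532 CPM at high boron. The falls at low boron were 0.88 ± 0.21 (edgeR adjusted p = 0.00942) and 0.81 ± 0.21 (adjusted p = 0.0158). PSBQ-2 lost its call without low-boron library 3 (-0.74, adjusted p = 0.147) or Ctrl library 2 (-0.77, adjusted p = 0.0812), and PSBQ-1 without low-boron library 3 (-0.68, adjusted p = 0.191), Ctrl library 2 (-0.88, adjusted p = 0.0535) or Ctrl library 3 (-0.73, adjusted p = 0.0775). At high boron neither was called (-0.50 ± 0.21, adjusted p = 0.346, and -0.27 ± 0.21, adjusted p = 0.752).

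PSBO1 (AT5G66570) mRNA had 2996 and 2844 CPM at low boron, 4119 and 4110 CPM in Ctrl, and 4288 and 4616 CPM at high boron. PSBO2 (AT3G50820) mRNA had 647 and 603 CPM at low boron, 955 and 836 CPM in Ctrl, and 975 and 1084 CPM at high boron. At low boron they were below Ctrl and fell by 0.49 ± 0.08 (edgeR adjusted p = 0.000281) and 0.52 ± 0.09 (adjusted p = 0.000421), and at high boron neither was called (0.11 ± 0.08 and 0.20 ± 0.09). PSBO2 was called at high boron without Ctrl library 2 (0.30, adjusted p = 0.046). Their footprints were not called in either comparison, PSBO2 passing at low boron without high-boron library 2 (-0.64, adjusted p = 0.0287) or 3 (-0.65, adjusted p = 0.0345). In the low-boron comparison PSBP-1 (AT1G06680) fell in both assays, by 0.57 ± 0.08 for mRNA (edgeR adjusted p = 0.000102) and 0.84 ± 0.23 for footprints (adjusted p = 0.0212). The PSBP-1 footprint call was lost without either low-boron library or either Ctrl library (-0.77 to -0.90).

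The shares of the paired copies are listed for description and were not tested. Over all RNA libraries PSAD-1 made up 67.7 to 70.2% of PSAD RNA counts, PSAH-1 51.3 to 54% of PSAH, PSBO1 81 to 83.1% of PSBO, PSAE-1 52.2 to 56.9% of PSAE and PSBQ-1 41 to 46.3% of PSBQ. PSAE-1 RNA shares were 56.9 and 55.2% at high boron, the highest of all libraries, against 53.4 and 52.2% in Ctrl. PSBQ-1 RNA shares were 42.3 and 41% at high boron, the lowest of all, against 46.2 and 44.2% in Ctrl. In footprints, PSAE-1 made up 70.3 and 69.4% at high boron, against 65.5 and 63.9% in Ctrl, and PSBQ-1 made up 51.1 and 52.9% at high boron, against 45 and 51.3% in Ctrl. Both footprint shares thus lay on the high side at high boron, where PSBQ-1 overlapped Ctrl and its RNA share was low. PSAH-1 footprint shares ran from 41.5 to 51.4% over all libraries.

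The other photosystem II subunits comprise PSBS, the sensor of thermal dissipation of excess light, PSBR, which helps to bind the oxygen-evolving proteins, and the small proteins PSBW, PSBX, PSBY and PSBTN. PSBTN (AT3G21055) mRNA had 572 and 582 CPM at low boron, 844 and 790 CPM in Ctrl, and 773 and 836 CPM at high boron. PSBX (AT2G06520) mRNA had 683 and 669 CPM at low boron, 948 and 912 CPM in Ctrl, and 1085 and 1080 CPM at high boron. At low boron they fell by 0.50 ± 0.08 (edgeR adjusted p = 0.000194) and 0.46 ± 0.08 (adjusted p = 0.000266), without overlap. PSBW (AT2G30570) mRNA had 1032 CPM in both low-boron libraries, 1334 and 1296 CPM in Ctrl, and 1467 and 1492 CPM at high boron. Its fall of 0.35 ± 0.08 (adjusted p = 0.00232) just missed the threshold without low-boron library 2 (-0.35, adjusted p = 0.0519) or 3 (-0.35, adjusted p = 0.053). None of the 6 genes was called at high boron in either assay, where mRNA changes ran from -0.05 ± 0.08 for PSBY to 0.22 ± 0.08 for PSBX.

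Footprints of 4 of these 6 genes fell at low boron. PSBTN had 315 and 374 CPM at low boron against 599 and 659 CPM in Ctrl (-0.87 ± 0.25, edgeR adjusted p = 0.028), PSBX had 1127 and 786 CPM at low boron against 1908 and 1508 CPM in Ctrl (-0.84 ± 0.23, adjusted p = 0.0233), and PSBW had 1720 and 1489 CPM at low boron against 3212 and 2501 CPM in Ctrl (-0.83 ± 0.23, adjusted p = 0.0215). The low-boron libraries were below Ctrl for each. The PSBTN call was lost without any of the low-boron or Ctrl libraries (adjusted p = 0.0767 to 0.162), that of PSBX without low-boron library 3 (-0.60, adjusted p = 0.282) or Ctrl library 2 (-0.65, adjusted p = 0.187), and that of PSBW without low-boron library 2 (-0.94, adjusted p = 0.0568), low-boron library 3 (-0.73, adjusted p = 0.187) or Ctrl library 2 (-0.64, adjusted p = 0.186). PSBR (AT1G79040) was the other gene called (-0.78 ± 0.23, adjusted p = 0.032), and PSBS (AT1G44575, -0.57 ± 0.21) and PSBY (AT1G67740, -0.54 ± 0.22) were not. The PSBR call was lost without either low-boron library or either Ctrl library (-0.73 to -0.81).

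Translation efficiency, footprints relative to mRNA, was tested in edgeR as an interaction between assay and supply, with the 12 libraries in 1 fit of 17306 genes. Of the 44 genes 0 were called at either supply, beside 0.0231% of all genes called higher and 0% called lower at low boron, and 0.0347% higher and 0.699% lower at high boron. Without adjustment, 3 of the 44 genes had p under 0.05 at low boron and 5 at high boron. Over all 17306 genes, 1049 and 1429 did. limma voom also called 0 at each supply, and DESeq2 called 0 at low boron and 1, PSAG, at high boron. The median change of the 44 genes was -0.18 at low boron and -0.13 at high boron, beside -0.05 and 0.03 over all genes tested. The low-boron median was -0.31 without low-boron footprint library 2, -0.09 without low-boron footprint library 3 and -0.10 without Ctrl footprint library 3. At high boron the median was 0.09 without footprint library 2 of high boron and -0.42 without footprint library 3.

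The largest changes in efficiency at low boron were those of PSAD-2 (-0.61 ± 0.23, edgeR adjusted p = 0.782), PSAE-1 (-0.61 ± 0.22, adjusted p = 0.755) and PSAN (-0.55 ± 0.28, adjusted p = 0.826). At high boron they were those of PSAG (-0.85 ± 0.22, adjusted p = 0.106), LHCB2.3 (-0.77 ± 0.25, adjusted p = 0.286) and LHCB1.3 (-0.73 ± 0.33, adjusted p = 0.598). PSAG passed with DESeq2 (adjusted p = 0.0142), with the replicate number as a block (adjusted p = 0.0414) and without footprint library 2 of high boron (-1.05, adjusted p = 0.0418). LHCB1.3 (-1.30, adjusted p = 0.0238) and LHCB2.3 (-1.12, adjusted p = 0.0358) passed without footprint library 3 of high boron. Across the 44 genes, mRNA and footprint changes correlated at Pearson r = 0.76 (Spearman rho = 0.53) at low boron and r = 0.79 (rho = 0.78) at high boron, and had the same sign in 42 and 34 genes. These are correlations across genes, which are not independent replicates, and single genes of a comparison share the same libraries.

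In Ctrl shoots the genes differed widely in footprints per mRNA, the ratio of footprint CPM to mRNA CPM. Both assays were counted over coding sequences, but as P-sites in footprints and as reads in RNA. Coding length therefore need not cancel fully in the ratio, and its part in the differences between genes was not tested. The ratio ran from 0.122 for LHCB1.1 to 3.33 for PSAN, with a median of 1.15 and 25 of 44 genes above 1. Over 17306 genes the median was 0.752 and 5741 were above 1. Photosystem I subunits had a median of 1.83, other photosystem II subunits 1.38 and oxygen-evolving subunits 1.31, whereas photosystem I antenna genes had 0.738, the minor antenna 0.696 and LHCII 0.352. Within LHCII the 5 LHCB1 genes had ratios of 0.122 to 0.352 and the 3 LHCB2 genes 1.15 to 1.38, so the families did not overlap. Whether the counting of reads shared by near-identical copies differed between the assays was not tested.

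**Figure D5:**
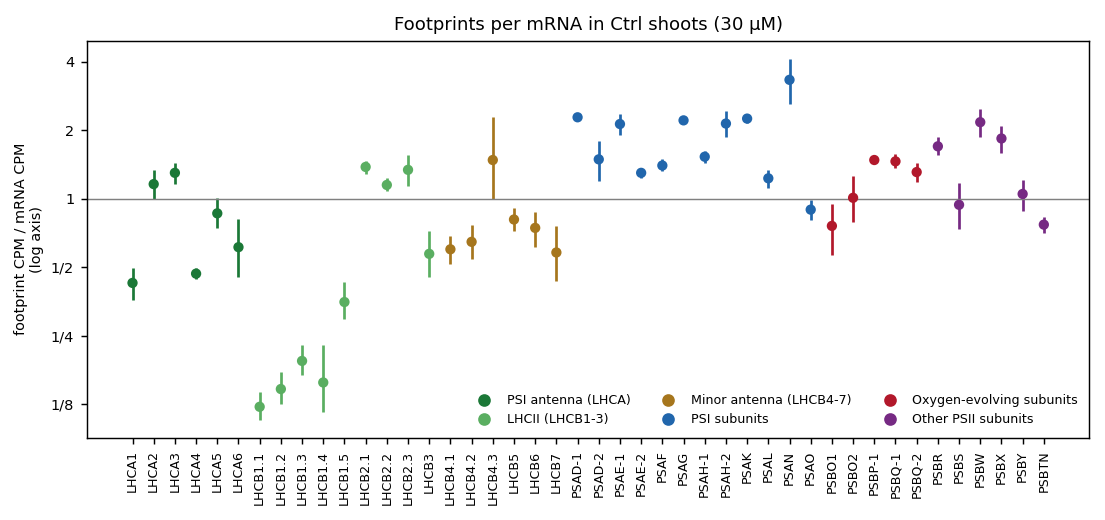
Ratio of footprint CPM to mRNA CPM in Ctrl for each of the 44 genes on a log axis, with a point for the ratio of the group means, a bar from the lowest to the highest of the 4 ratios between single libraries and colours for the role. LHCB1 genes lie lowest (0.122 to 0.352), LHCB2 genes lie above 1, and 11 of the 12 photosystem I subunits lie above 1, PSAN highest at 3.33.

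Other genes of the light reactions fell with the 44 at low boron, where 13.8% of all genes tested were called lower in mRNA and 6.92% in footprints. Of 10 genes of electron transport between and after the photosystems, mRNA of 8 fell and 0 rose, among them ferredoxin-NADP reductase LFNR2 (-0.76 ± 0.10, edgeR adjusted p = 3.34e-05), plastocyanin PETE2 (-0.58 ± 0.09, adjusted p = 0.000118) and ferredoxin FD2 (-0.52 ± 0.08, adjusted p = 0.000131), and footprints of 6 fell. All 3 nuclear ATP synthase genes fell in mRNA, by 0.38 to 0.49, and 1, ATPD, fell in footprints (-0.76 ± 0.22, adjusted p = 0.0293). Of 10 genes that assemble the photosystems or bring antenna proteins to the membrane, mRNA of 8 and footprints of 7 fell, including the photosystem II assembly factor HCF136 (-0.66 ± 0.09 in mRNA and -0.97 ± 0.18 in footprints). The mRNA medians of the 3 lists were -0.43, -0.41 and -0.44. Without low-boron footprint library 3, LFNR2 (-0.89), HCF136 (-0.85) and ATPD (-0.77) were not called in footprints. The ATPD call was also lost without low-boron footprint library 2 (-0.75) or Ctrl footprint library 2 (-0.62).

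At high boron 2 of the 10 electron transport genes were called higher in mRNA and 1 lower, and 0 of 3 ATP synthase genes and 0 of 10 assembly genes were called, beside 4.5% of all genes called higher and 4.55% lower. PGR5 (0.54 ± 0.08, edgeR adjusted p = 0.00048) and PGRL1A (0.39 ± 0.09, adjusted p = 0.0166), which act in cyclic flow around photosystem I, rose, and plastocyanin PETE1 (-0.54 ± 0.08, adjusted p = 0.000569) fell. The PGRL1A call was lost without high-boron library 3 (0.33, adjusted p = 0.0952) or Ctrl library 3 (0.28, adjusted p = 0.0794).

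Of 13 regulators of the photosystems, low boron raised mRNA of 2 and lowered that of 4, and high boron raised that of 3 and lowered that of 0. Their median changes were 0.04 and 0.02. Over all genes tested 19.5% were called higher and 13.8% lower at low boron, so the rises at low boron were not above that share. At high boron 4.5% of all genes were called higher and 4.55% lower. STN8, a kinase of photosystem II core proteins, fell at low boron (-0.81 ± 0.08, edgeR adjusted p = 4.31e-06), as did NPQ1, the violaxanthin de-epoxidase (-0.56 ± 0.09, adjusted p = 0.000242). GLK2, a transcription factor that activates antenna genes, rose at both supplies, by 0.47 ± 0.09 at low boron (adjusted p = 0.00102) and by 1.02 ± 0.09 at high boron (adjusted p = 8.49e-06). STN7, the kinase that phosphorylates LHCII for state transitions, rose at high boron (0.42 ± 0.08, adjusted p = 0.0052), a call lost without high-boron library 3 (0.33, adjusted p = 0.0519), and so did ABA1, zeaxanthin epoxidase (0.73 ± 0.08, adjusted p = 5.05e-05).

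Clock genes and leaf markers moved with the supplies as well. Of 11 clock genes, mRNA of 4 rose and 5 fell at low boron, and 4 rose and 4 fell at high boron. The shares over all genes tested were those given for the 44 genes, 19.5% higher and 13.8% lower at low boron, 4.5% higher and 4.55% lower at high boron. CCA1, a morning gene whose protein binds LHCB promoters, had 22.2 and 19.3 CPM at low boron, 7.52 and 7.38 CPM in Ctrl, and 29.1 and 24.7 CPM at high boron, and rose by 1.48 ± 0.16 (edgeR adjusted p = 6.49e-06) and 1.85 ± 0.16 (adjusted p = 6.15e-06). ELF4, an evening gene, had 22.9 and 24 CPM at low boron, 65.5 and 52.2 CPM in Ctrl, and 24.8 and 26.1 CPM at high boron. Ctrl was thus below both other supplies in mRNA of CCA1, LHY, RVE8, PRR9 and PRR7. It was above both in mRNA of ELF4, TOC1, ELF3 and LUX. The PRR7 gap to low boron was small (221 and 243 CPM against 218 CPM in both Ctrl libraries). In PRR5 and GI, Ctrl overlapped high boron. The time of harvest is not given in the labels.

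The 4 leaf markers (CA1, RCA, YAB1 and AS1) were called lower in mRNA at low boron in 4 of 4 cases and at high boron in 0 of 4. Their summed mRNA ran from 3842 to 4020 CPM at low boron, from 5046 to 5942 CPM in Ctrl and from 4380 to 5150 CPM at high boron. RCA and CA1 make up nearly all of that sum. YAB1 had 43.5 and 39.1 CPM at high boron against 31.5 and 36.3 CPM in Ctrl, AS1 had 56.1 and 50.8 CPM at high boron against 44.5 and 42.8 CPM in Ctrl, and the median change of the 4 genes there was 0.08. Epidermal markers summed to 309 to 337 CPM at low boron, 412 to 506 CPM in Ctrl and 444 to 483 CPM at high boron, with 3 of 4 lower at low boron and 1 of 4 higher at high boron. Vascular markers summed to 197 to 214 CPM at low boron, 175 to 200 CPM in Ctrl and 208 to 232 CPM at high boron, with 1 of 5 called, higher at low boron, a share near the 19.5% of all genes. SUC2 makes up most of that sum, whereas IRX1, IRX3 and CESA4 were below both Ctrl libraries in both low-boron libraries, and the median change of the 5 genes at low boron was -0.16. None of these leaf, epidermal and vascular markers was at 0 in every RNA library. Their part and that of the clock in the changes of the 44 genes was not tested, and in whole shoots fewer cells of a type and less RNA per cell cannot be told apart.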

How the data were processed

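The deposited tables, 1 per assay, hold raw counts made by the authors for 27655 genes. Per the file names, RNA reads and ribosomal P-sites were counted over coding sequences, so reads outside them do not enter. Bowtie2 and SAMtools were named, per the submitters' processing notes. Versions, build, annotation, read filters and use of strand are not given in the sources used here, nor is the preparation of the RNA libraries. Per the labels' protocols, cycloheximide was present during extraction, RNase I made the footprints, and ribosomal RNA was removed from them. Columns were assigned to groups by name. They carry the numbers 2 and 3 where the labels count from 1, so equal numbers were not taken as pairs. The labels call the libraries biological replicates, and p-values measure the spread between pooled harvests only.

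Counts were tested in R 4.3.3 with edgeR 4.0.16 (glmQLFit and glmQLFTest, TMM, filterByExpr, Benjamini-Hochberg, threshold 0.05), all 3 supplies of an assay sharing 1 fit, on 18403 mRNA and 17697 footprint rows. Translation efficiency was the interaction of assay and supply over 12 libraries, TMM being computed within assay, for the 17306 genes that passed both filters. All 44 genes passed every filter. The SE is the size of the log2 fold change over the square root of F. edgeR's common coefficient of biological variation was 6.92% in mRNA, 14.9% in footprints and 11.1% jointly, so footprints resolve smaller changes less well. No sequences were used here, and gene positions served only to tell chromosomes and neighbouring genes. Gene names and neighbours came from RefSeq (TAIR10.1), in which 27445 of the genes and all 44 described had a row.

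The genes, the lists of other genes and the tests were chosen with earlier results of these data known. Genes described singly were those with the 2 largest mRNA changes or the largest footprint change of a role group in a comparison. Paired copies, the LHCB1 and LHCB2 sums, the 3 largest efficiency changes per comparison and up to 3 called genes per list were also described. Not all of their footprint levels were printed, among them those of PSAH and PSBO, and those of LHCB6 and PSBX at high boron. LHCA1, LHCA3, LHCB2.2, LHCB3, PSAF, PSAL, PSBP-1, PSBR and the 4 shares of LHCB2, LHCA2, LHCB1.3 and LHCB4.1 were added after their values were seen. Alternatives were DESeq2 size factors in edgeR, DESeq2 1.42.0, limma 3.58.1 voom, no filter, a strict filter (each group averaging at least 50 counts), organelle-encoded genes removed, scaling without the 44 and organelle-encoded genes, summing LHCB1 and LHCB2, 2 groups per fit, the replicate number as a block, and leaving out each library. The fitting steps were tested on simulated data with known changes.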

Additional observations from a re-analysis of the deposited data

How the results depend on the processing

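In mRNA at low boron, 1 of the 44 genes was called higher with no filter on low counts, and the 2-group fit left 1 lower at high boron. In footprints at high boron, DESeq2 called 4 lower (LHCA2, LHCB1.3, PSAE-2 and PSAG) and the strict filter 1, while summing LHCB1 and LHCB2 left 0 higher and 1 lower. In efficiency at high boron, 1 was called lower with DESeq2.

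Deviations of equal-numbered libraries from their group means correlated at -0.02 to 0.08 for RNA and at -0.01, 0.15 and 0.21 for footprints, so not every pair passed 0.1 and the numbers were not treated as pairs. With the replicate block, 1 gene, PSAG, was called lower in efficiency at high boron (adjusted p = 0.0414), and the counts of calls in mRNA and footprints stayed within 1.5 times. With the block, LHCA2, LHCB2.3, PSAH-1, PSAL and PSBO2 footprints were called lower at low boron (adjusted p = 0.0347 to 0.0459), and LHCB5, PSAN and PSBQ-1 mRNA were not called at high boron (adjusted p = 0.0561 to 0.0685).

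Leaving out 1 library at a time, genes called at low boron ranged from 0 to 2 higher and 30 to 39 lower in mRNA and from 1 to 31 lower in footprints. At high boron they ranged from 11 to 17 higher and 1 to 5 lower in mRNA, from 0 to 1 higher and 0 to 2 lower in footprints, and from 0 to 2 lower in efficiency. LHCB1.4 mRNA at high boron changed sign, with -0.50 (adjusted p = 0.000363) without Ctrl library 2 and 0.35 (adjusted p = 0.0166) without Ctrl library 3. LHCA5 mRNA at low boron was -0.44 with all libraries and -0.29 without Ctrl library 2 (adjusted p = 0.0186). The cause of these shifts was not tested. With 2 libraries per group, a fit that leaves out 1 assumes that the lone library varies like those of the other groups. LHCB7 and LHCB4.3 had low mRNA counts, and their SEs of 0.18 to 0.20 were above those of most of the 44 genes. LHCB1.4 mRNA, at 1373 and 2480 CPM in Ctrl, also had an SE of 0.18, and the part of depth in these SEs was not tested.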
